A study of Mus musculus with 6 samples.

Results

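The Hedgehog pathway was followed through 9 of its core genes: the ligands Shh and Ihh, the receptor Ptch1, the signal transducer Smo, the transcription factors Gli1, Gli2 and Gli3, and the inhibitors Hhip and Sufu. A probe was taken as belonging to one of them when its transcript accession is that of the gene. By this rule 12 probes represented the 9 genes, among 55681 non-control probes on the array, of which 27235 matched 20660 genes.

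The study asked how mouse mammary cells with regenerative properties differ between late fetal life and adulthood. RNA of freshly sorted cells from female C57Bl6J mice was hybridized to one-colour Agilent expression arrays, with 3 biological replicates of each of 2 populations and 1 array per replicate. The fetal population came from mammary rudiments on embryonic day 18.5 (E18.5) and was sorted as EpCAM++ CD49f+ cells, after a short enzymatic digestion. The adult basal population came from glands of mice aged 8–12 weeks and was sorted as EpCAM+ CD49f+ cells without the stromal marker BP-1, after an overnight digestion. Cells with the endothelial marker CD31, the leukocyte marker CD45 or the erythroid marker Ter119 were removed from both. The mice carried no transgene or treatment named in the labels. Age, EpCAM level, the BP-1 gate and length of digestion all differ between the populations, so their parts in any difference cannot be told apart. Each sample is a sorted population, so a larger share of cells with a transcript and more transcript per cell also cannot be told apart.

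Hedgehog ligands are secreted proteins that bind PTCH1 on a receiving cell. Free PTCH1 holds the membrane protein SMO inactive, and ligand binding lifts that hold, so that GLI factors, otherwise processed into repressors and restrained by SUFU, can switch on target genes from the primary cilium. PTCH1, HHIP and GLI1 are themselves classical targets and are therefore read as reporters of signalling in many tissues. The mammary bud is known as a skin appendage that forms with little Hedgehog activity, unlike the hair follicle, and GLI3 repressor is needed for its formation.

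Values are log2 normalized spot signals, and differences are log2 fold changes of the fetal over the adult basal population, so that 1 unit is a doubling. By the scanner software's own test, which compares a spot with its surroundings, an array had between 76.4% and 83.3% of its probes well above background. No gene is called more abundant than another, because probes differ in brightness, and where marker lists are summed or their brightest probe is named this describes signal only. A probe entered the test if the log2 of its mean linear signal reached 5.95 in at least 1 population, and 8 of the 12 probes, for 6 of the 9 genes, did so. Shh, Ihh and Gli2 were below that level in both populations. Gli1 passed only through the fetal population, where it is brighter.

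No probe of the 9 genes passed the threshold the study used, 0.05 for the Holm-adjusted p together with a change of 2-fold or more, in the limma fit over all 20448 tested probes. That threshold was passed by 11.1% of all tested probes, 5.92% higher in the fetal and 5.18% in the adult basal population. With the less strict Benjamini-Hochberg adjustment, 2 of the 8 tested probes passed, Gli1 higher in fetal cells and Ptch1 higher in adult basal cells, where the share of all tested probes was 30%. Before any adjustment, 5 of the 8 probes had a limma p under 0.05, against 64.7% of all tested probes. The populations did not overlap on 6 of the 8 probes, against 69% of all tested probes, with 5 of them higher on every fetal array (34.1% of all) and 1 higher on every adult basal array (35% of all). Over the 6 tested genes the median log2 fold change was 0.38 and the median size 0.63, against -0.04 and 0.53 over all 15734 tested genes. The calls of the members were no more frequent than those of the array as a whole. More of their probes lay higher on every fetal array than the array's share, but Gli1 entered the test only through its fetal level and Sufu is counted with both probes, and nothing is read from that count or from the medians.

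**Figure D1:**
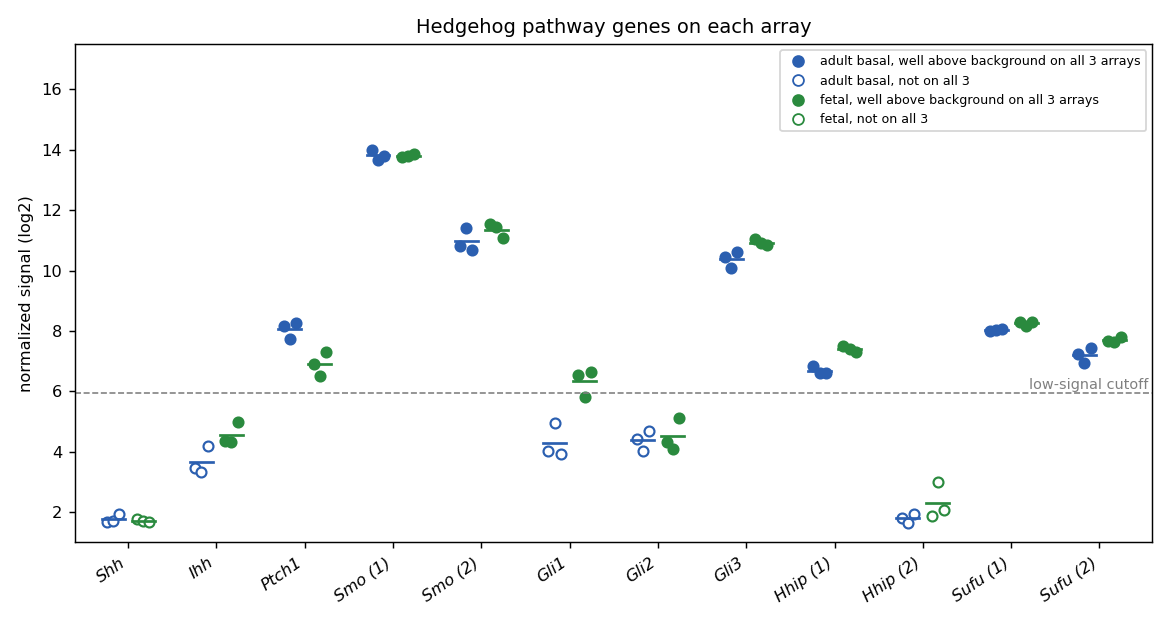
Normalized log2 signal (vertical axis) of the 12 probes of the 9 genes on the 3 adult basal and 3 fetal arrays; points are arrays, short bars the means, and open points belong to a probe that is not well above background on all 3 arrays of that population. Ptch1 lies lower and Gli1 higher on the fetal arrays without overlap, while the first Smo probe lies at the same level in both.

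Of the ligands, Shh, the founding vertebrate Hedgehog ligand, was not detected. Its probe, printed as 10 spots on each array, read 1.68, 1.70 and 1.96 on the adult basal arrays and 1.77, 1.70 and 1.69 on the fetal arrays. On none of the 6 arrays was it well above background, and no fold change is given. Ihh, the ligand best known from cartilage and gut, read 3.47, 3.31 and 4.20 on the adult basal arrays and 4.37, 4.34 and 4.98 on the fetal arrays. It was well above background on all 3 fetal arrays and on none of the adult basal arrays, close to the lower limit of detection. On the main scale its fetal signal was at least 1.60-fold higher. This sets the fetal mean against the lowest signal called above background on each adult array or the probe's own signal, whichever was higher. With a normexp background correction the difference between the means was 0.20, and with 16 units added to the signal it was 0.46. The bound therefore does not hold under those settings. With every matched probe tested, the limma p after Holm adjustment was 1, so it was not called. The third ligand, Dhh, known from Schwann and Sertoli cells, read 5.66, 5.71 and 5.43 on the adult basal arrays and 4.76, 4.89 and 4.61 on the fetal arrays. It was well above background on all 6 arrays but below the level for testing, and its adult basal values lay above all fetal values.

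Ptch1, the ligand receptor and a target of the pathway, was higher in adult basal cells. Its probe read 8.16, 7.73 and 8.27 on the adult basal arrays and 6.90, 6.51 and 7.31 on the fetal arrays. The lowest adult basal array lay above the highest fetal array, and all 6 were well above background. The log2 fold change was -1.15 (SE 0.23, 95% interval -1.69 to -0.60), a 2.21-fold higher signal in adult basal cells, with a limma Benjamini-Hochberg adjusted p of 0.00364 and a Holm-adjusted p of 1. Within the slide that held 1 fetal and 2 adult basal arrays the difference was -1.32, and within the slide that held 2 fetal and 1 adult basal array it was -0.82. Without fetal replicate 2 the difference was -0.95 and fell short of the 2-fold limit.

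Smo, the transducer that Ptch1 holds inactive, was bright in both populations. Its brighter probe read 13.99, 13.65 and 13.80 on the adult basal arrays and 13.75, 13.80 and 13.87 on the fetal arrays. These values overlap, and the log2 fold change was -0.003 (SE 0.118, 95% interval -0.28 to 0.28, limma Benjamini-Hochberg adjusted p = 0.983), so that a 2-fold difference lies outside the interval for this probe. The dimmer Smo probe read 10.83, 11.42 and 10.68 in adult basal and 11.54, 11.45 and 11.07 in fetal cells, a difference of 0.38 (SE 0.22) with a wider interval of -0.13 to 0.90. Adult basal replicate 2 alone lay among the fetal values, and without it this difference was 0.61 with a limma Benjamini-Hochberg adjusted p of 0.0155. Without adult basal replicate 3 it was 0.24. The 2 probes thus gave different sizes, and neither was 2-fold.

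Among the transcription factors, Gli1, the activator whose own transcription follows pathway activity, was higher in fetal cells. It read 4.03, 4.95 and 3.91 on the adult basal arrays and 6.54, 5.80 and 6.64 on the fetal arrays. No adult basal array reached the lowest fetal array, fetal replicate 2 and adult basal replicate 2 being the nearest to each other. The log2 fold change was 2.03 (SE 0.33, 95% interval 1.26 to 2.80), a 4.09-fold higher signal in fetal cells, with a limma Benjamini-Hochberg adjusted p of 0.00117 and a Holm-adjusted p of 1. The probe was well above background on all 3 fetal and on 2 of the 3 adult basal arrays, so the adult level lies near the limit of detection and the size of the fold depends on how background is subtracted. With a normexp background correction the difference between the means was 0.77, and with 16 units added to the signal it was 1.42, both with no overlap of the populations. In both cases the probe fell below the level for testing. Within the slide with 1 fetal and 2 adult basal arrays the difference was 2.57, and within the other slide 1.27.

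Gli2, the main activator at the start of the response in many tissues, was barely above background. It read 4.42, 4.02 and 4.70 in adult basal and 4.32, 4.08 and 5.12 in fetal cells. The populations overlapped, and with every matched probe tested the difference was 0.13 (SE 0.31). Gli3, which acts largely as a repressor without ligand, was well above background on all 6 arrays. It read 10.44, 10.07 and 10.63 on the adult basal arrays and 11.04, 10.90 and 10.84 on the fetal arrays, all fetal values lying above the adult basal ones. Its log2 fold change was 0.54 (SE 0.16, 95% interval 0.17 to 0.91, limma Benjamini-Hochberg adjusted p = 0.0189), a 1.46-fold higher signal in fetal cells that is under the 2-fold limit. Without fetal replicate 1 the Gli3 difference was 0.49 with a limma Benjamini-Hochberg adjusted p of 0.0690. Without fetal replicate 2 it was 0.56 with a limma Benjamini-Hochberg adjusted p of 0.0513.

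Of the inhibitors, Hhip, a membrane protein that binds Hedgehog ligands and is itself a target, was higher in fetal cells by less than 2-fold. It read 6.83, 6.62 and 6.61 on the adult basal arrays and 7.50, 7.39 and 7.30 on the fetal arrays. Replicates lay close together and the populations did not overlap. The log2 fold change was 0.71 (SE 0.11, 95% interval 0.45 to 0.97, limma Benjamini-Hochberg adjusted p = 0.00105), a 1.63-fold higher fetal signal. A second Hhip probe stayed at background on every array and gives no fold change. Sufu, the cytoplasmic partner that holds GLI proteins back, was represented by 2 probes. The brighter read 7.99, 8.04 and 8.08 in adult basal and 8.29, 8.17 and 8.29 in fetal cells, a difference of 0.22 (SE 0.10, limma Benjamini-Hochberg adjusted p = 0.0853). The dimmer read 7.23, 6.94 and 7.42 in adult basal and 7.66, 7.63 and 7.79 in fetal cells, a difference of 0.50 (SE 0.14, limma Benjamini-Hochberg adjusted p = 0.0182). Under the alternatives the limma Benjamini-Hochberg adjusted p of the dimmer probe reached 0.0657. Both probes lay higher on every fetal array than on any adult basal array, and neither difference was 2-fold.

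The 3 genes usually read as reporters of the pathway, Ptch1, Gli1 and Hhip, therefore did not share a direction. The difference between 2 of them within each array leaves out anything that scales a whole array, though the arrays had already been quantile normalized. It does not remove the effect of background on a dim probe. Gli1 minus Ptch1 was -4.13, -2.78 and -4.36 on the adult basal arrays and -0.35, -0.71 and -0.67 on the fetal arrays. Hhip minus Ptch1 was -1.33, -1.11 and -1.66 on the adult basal arrays and 0.61, 0.88 and -0.01 on the fetal arrays. Only the shift between the populations can be read from these values, since the probes differ in brightness. It was 3.18 for the first pair, 1.86 for the second and 1.32 for Gli1 minus Hhip, and in each pair the populations did not overlap. For the pairs with Ptch1 the lack of overlap only restates that the single genes separated in opposite directions. With the normexp correction these shifts were smaller, at 1.59, 1.25 and 0.35, and with the offset of 16 they were 2.47, 1.68 and 0.79. Under both settings the populations overlapped for Gli1 minus Hhip and did not for the other pairs. On the values as first given, the exact two-sided permutation test gave p = 0.10 for each of the 3 pairs, also after Benjamini-Hochberg adjustment, which is the smallest p that 3 arrays against 3 allow. No support is drawn from these p values, since the single genes fixed the outcome for the pairs with Ptch1. In the pairs with Gli1, that probe lies near the limit of detection in adult basal cells, so those shifts are not exact sizes.

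**Figure D2:**
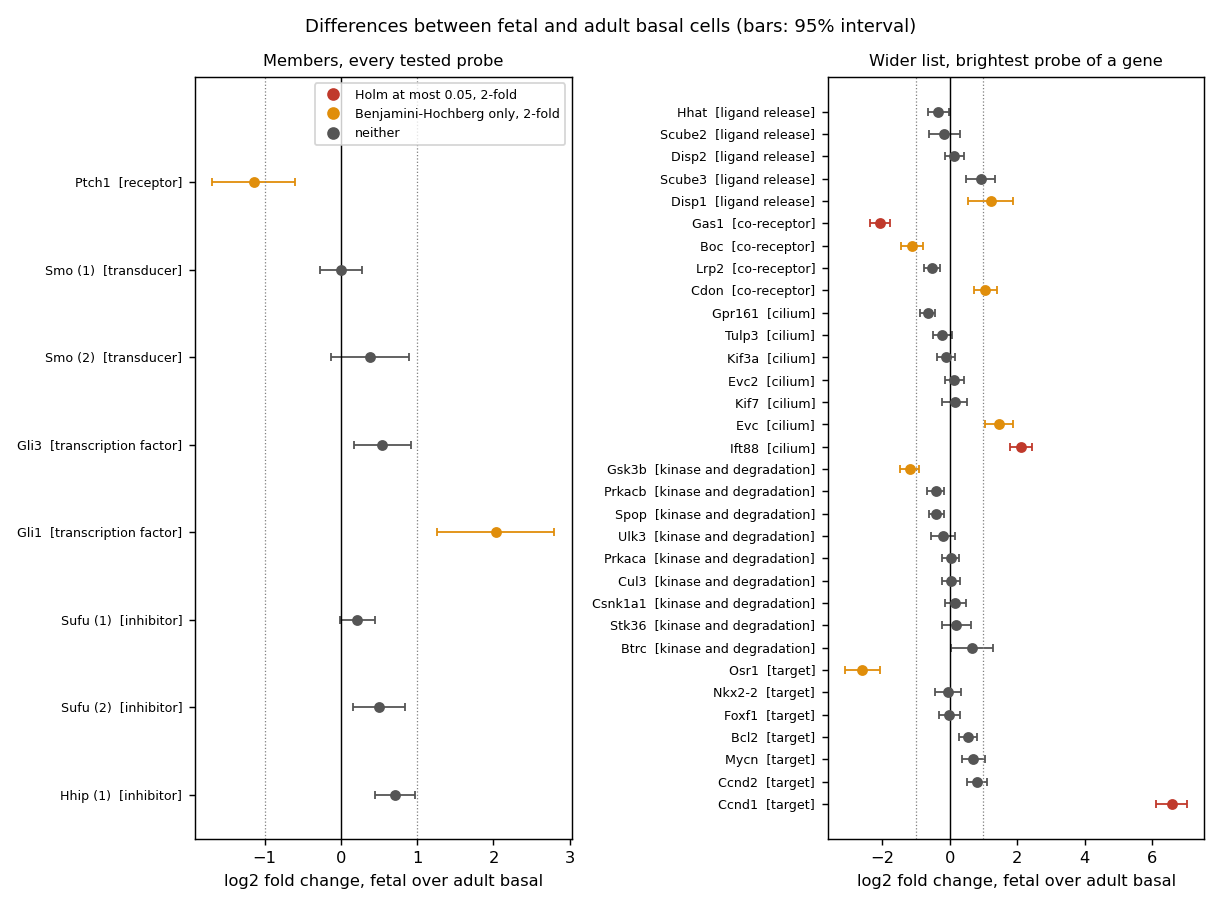
Log2 fold change of fetal over adult basal cells (horizontal axis) with its 95% interval for the 8 tested probes of the core genes and for the brightest probe of further pathway genes, ordered by role, with dotted lines at 2-fold; colours show which adjustment a probe passed. Gli1 and Ptch1 lie past 2-fold on opposite sides among the core genes, and Ccnd1, Ift88 and Gas1 passed the Holm threshold in the wider list.

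The promoters of the members were searched for the letters that GLI proteins prefer, to show where the DNA next to these genes does and does not hold them. RefSeq windows of the GRCm38.p6 assembly were found for 7 of the 9 genes: Ihh, Ptch1, Smo, Gli2, Gli3, Hhip and Sufu. In the 250 bases before the start site the full motif GACCACCCA, read on both strands, was held by 0.225% of 32851 windows and by none of the 7, nor by the 27 windows found for the wider list. Its inner letters CCACCC, which overlap the full motif, were held by 28.1% of all windows and by 5 of the 7, but by only 7 of the 27 windows of the wider list. The match nearest to the start is shown for 4 of those 5 with up to 12 bases on each side, in the direction of the gene, with the match in capitals (GGGTGG where it lies on the opposite strand).
Ihh: agggcagcgggcGGGTGGacgcgcggctga
Smo: tcccgaatacccCCACCCcagccccttcgg
Gli3: gggacggggcggGGGTGGgggcgcgcgagg
Hhip: cgcagccggaggCCACCCtgggccccggcg
They lie at chr1:74951836-74951865 (minus strand), chr6:29735323-29735352 (plus), chr13:15463541-15463570 (plus) and chr8:80058149-80058178 (minus). The match begins 181 bases before the start in Ihh, 162 in Smo, 170 in Gli3 and 158 in Hhip. The windows of Ptch1 and Sufu hold no match, and sites outside these 250 bases were not searched. The share of G or C in the 7 windows ran from 54.0% in Sufu to 78.4% in Ptch1. Binding by GLI factors was not measured, and the matches are a description of the sequence.

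The wider pathway list held 37 genes in 7 roles, and 33 of them could be tested. Those not tested were Dhh, Scube1, Foxf2 and Foxl1. With the Holm threshold 2 genes were higher in fetal cells, Ccnd1 and Ift88, and 1 was higher in adult basal cells, Gas1, or 3 of 33 genes, near the 11.1% of all tested probes. With Benjamini-Hochberg adjustment the brightest probe of 5 genes was at least 2-fold higher in fetal cells (Disp1, Cdon, Evc, Ift88 and Ccnd1) and that of 4 in adult basal cells (Boc, Gas1, Gsk3b and Osr1). The shares of all tested probes in those directions were 16% and 14%. The median over the 33 genes was 0.03, and the populations did not overlap for 21 of them (63.6%, against 68.4% of all tested genes). The list thus had no common direction.

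Among genes that release ligand from the sending cell, 5 of 6 were tested and none passed the Holm threshold. The largest difference was in Disp1, the transporter that frees lipid-bearing Hedgehog proteins. It read 7.30, 6.30 and 7.30 in adult basal and 8.23, 7.94 and 8.38 in fetal cells. The log2 fold change was 1.22 (SE 0.28, limma Benjamini-Hochberg adjusted p = 0.00714). All fetal arrays lay above the adult basal arrays, among which replicate 2 was low. Without that replicate the difference was 0.88 and with the normexp correction 0.95, both short of 2-fold.

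The 4 co-receptors, which help Ptch1 to bind ligand, differed in both directions. Gas1, a membrane-anchored co-receptor that is also strongly expressed by fibroblasts, read 12.85, 12.60 and 12.94 on the adult basal arrays and 10.63, 10.68 and 10.86 on the fetal arrays. The 2 sets lay far apart, with a log2 fold change of -2.07 (SE 0.13, limma Holm-adjusted p = 0.0122). The other Gas1 probes gave -0.80 and -2.16 and did not pass the Holm threshold. Boc was also higher in adult basal cells, reading 12.73, 13.00 and 13.17 against 11.97, 11.74 and 11.85 in fetal cells, a difference of -1.11 (SE 0.14). Its relative Cdon went the other way, with 9.75, 10.17 and 9.69 in adult basal and 10.88, 11.01 and 10.89 in fetal cells, and a difference of 1.06 (SE 0.15), and its second probe gave 1.15. Boc and Cdon passed Benjamini-Hochberg adjustment in limma (adjusted p of 0.000315 and 0.000526) but not Holm. The brighter Cdon probe fell short of 2-fold with slide as a block and without adult basal replicate 3 (0.97 in both). Lrp2 differed by -0.53.

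Of the 7 genes that act in the cilium, Ift88 stood out. Its product carries cargo along the ciliary shaft and is needed for GLI processing. Ift88 read 9.32, 9.04 and 8.93 in adult basal and 11.06, 11.35 and 11.19 in fetal cells, all fetal arrays being well above all adult basal arrays. The log2 fold change was 2.10 (SE 0.14, limma Holm-adjusted p = 0.0193). Evc, which binds Smo at the base of the cilium, differed by 1.47 on its brighter probe and by 0.35 on its dimmer one, and only the brighter passed Benjamini-Hochberg adjustment, while their mean gave 0.91. Without fetal replicate 3 the dimmer Evc probe gave 0.15. The other cilium genes, Gpr161, Tulp3, Evc2, Kif3a and Kif7, differed by less than 2-fold. The Holm calls of Gas1 and Ift88 depended on the processing and on single arrays. The limma Holm-adjusted p was 0.0934 for Gas1 and 0.145 for Ift88 without the low-signal filter, and 0.0772 and 0.118 with slide as a block. The mean of the Gas1 probes gave a smaller difference of -1.68, with a limma Holm-adjusted p of 0.209. For Gas1 the limma Holm-adjusted p was 0.156 without adult basal replicate 1, 0.0927 without adult basal replicate 3, and 0.211, 0.208 and 0.0934 without fetal replicates 1, 2 and 3. For Ift88 it was 0.0898 without adult basal replicate 2, 0.125 without adult basal replicate 3, and 0.176, 0.222 and 0.257 without fetal replicates 1, 2 and 3. The sizes of both differences stayed between -2.14 and -2.0 and between 2.02 and 2.18 when these arrays were left out.

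Of the 9 kinases and degradation factors that mark GLI proteins, none passed the Holm threshold. Gsk3b, which phosphorylates GLI proteins and many others, had the largest difference among the brightest probes. It read 14.24, 14.43 and 14.50 in adult basal and 13.28, 13.08 and 13.22 in fetal cells, which is a log2 fold change of -1.19 (SE 0.11, limma Benjamini-Hochberg adjusted p = 7.97e-05), and its other probes gave -0.87 and -1.25. Btrc, part of a ubiquitin ligase, differed by 0.66 on its brighter probe, and only its dimmer probe passed Benjamini-Hochberg adjustment, at 1.61. The brighter probe gave 0.39 without adult basal replicate 2 and 0.97 without adult basal replicate 3.

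Of 9 genes described as targets in one tissue or another, 7 were tested. Ccnd1, a cyclin of the G1 phase that many growth signals induce, had the largest difference of the whole list. It read 8.57, 7.78 and 8.35 on the adult basal arrays and 14.81, 14.82 and 14.82 on the fetal arrays, a log2 fold change of 6.59 (SE 0.20, limma Holm-adjusted p = 7.86e-05). It was called under all 17 alternatives run on its probe. Osr1, a mesenchymal transcription factor, went in the opposite direction, with 12.48, 13.06 and 13.15 in adult basal and 10.09, 10.18 and 10.64 in fetal cells, a difference of -2.59 (SE 0.22) that missed the Holm threshold (limma Holm-adjusted p = 0.104). Ccnd2, Mycn and Bcl2 gave 0.81, 0.69 and 0.54, all with fetal arrays above adult basal arrays and all under 2-fold. Foxf1 and Nkx2-2, targets in gut mesenchyme and neural tube, gave -0.02 and -0.05 with overlapping arrays.

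Markers of the sorted populations were read beside the pathway genes, each list counted by the brightest tested probe of a gene unless another is named. Like Gli1, some called markers entered the test only through the population where they are brighter, among them Elf5, Csn2, Myh11, Pdgfrb, Hbb-bt and S100b. Csn2 and Hbb-bt were well above background on none of the adult basal arrays, so their differences have no exact size. Of 10 genes of basal mammary cells, 7 were called higher in the adult basal population with the Holm threshold: Krt5, Acta2, Myh11, Mylk, Oxtr, Cnn1 and Tagln, keratin and contractile genes of myoepithelium. Their summed signal in linear units was 1101084, 1049534 and 1055937 on the adult basal arrays and 108113, 99279 and 89624 on the fetal arrays, with Acta2 the brightest. Krt14 and the brighter Trp63 probe were well above background on all 6 arrays and were not called, whereas the dimmer Trp63 probe, at -3.06, passed the Holm threshold. Of 10 luminal genes, 4 were called higher in fetal cells: Elf5, Kit, Pgr and Csn2, and the dimmer probe of Prlr also passed, at 1.85. Their sum was 127054, 121246 and 121084 on the adult basal and 187003, 191822 and 150166 on the fetal arrays, with Krt18 the brightest. Other members of both lists went the opposite way: the basal marker Vim was higher in fetal cells (1.15), and the luminal markers Krt19 (-1.22) and Esr1 (-3.58 on its 1 tested probe, well above background on 1 of the 3 fetal arrays) were higher in adult basal cells, all with Benjamini-Hochberg adjustment only. The -3.58 is therefore not an exact size. The other Esr1 probes were below the level for testing but well above background on all 6 arrays, and differed by -1.06 and -1.58. The adult label is matched by the contractile markers, and the fetal cells carried epithelial keratins with a mixed set of luminal markers. The basal list differed in the direction of Ptch1, Gas1, Boc and Osr1 and the luminal list in that of Gli1, Gli3 and Hhip, and their part in those differences was not tested.

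All 10 fibroblast genes had lower means in fetal cells, in the direction of Ptch1, Gas1, Boc and Osr1. Their summed signal was 18156, 22256 and 28903 on the adult basal arrays and 6314, 6508 and 7985 on the fetal arrays, without overlap, and Col1a2 was the brightest. With the Holm threshold 2 of the 10 were called, Dcn and Pdgfrb, and 5 with Benjamini-Hochberg adjustment, which added Lum, Thy1 and Twist2. Dcn, an extracellular matrix proteoglycan, read 13.04, 13.39 and 13.72 in adult basal and 9.50, 9.54 and 9.78 in fetal cells. Pdgfrb, a receptor of mesenchymal and mural cells, read 9.04, 9.39 and 9.51 in adult basal and 4.92, 4.76 and 5.23 in fetal cells. Col1a1, the main fibrillar collagen, differed by -0.01. Each of the 10 genes was well above background on every array. The part of fibroblast RNA in the differences of Ptch1, Gas1, Boc and Osr1 was not tested.

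**Figure D3:**
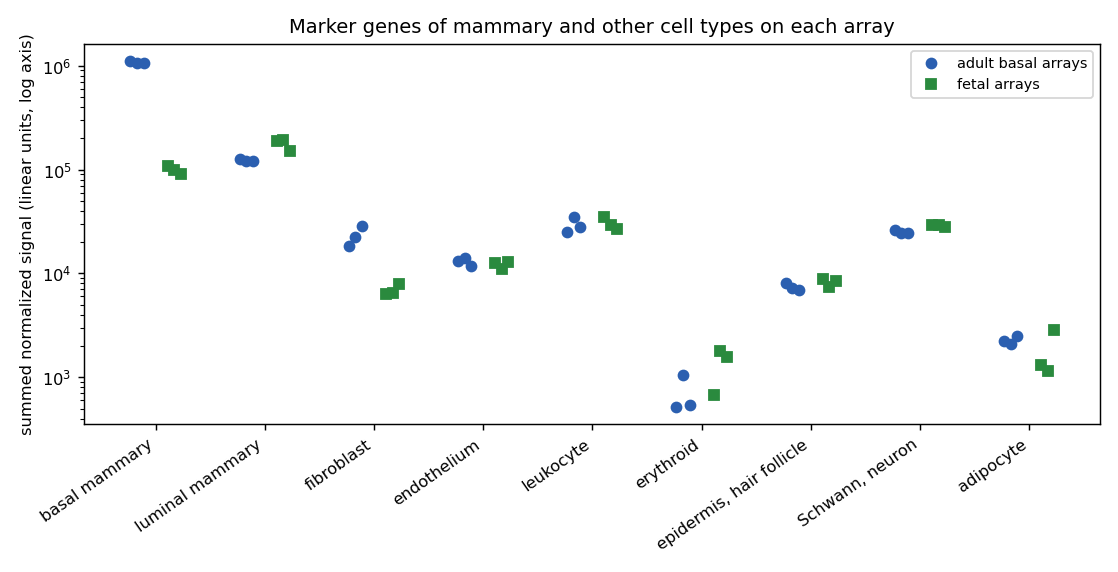
Summed normalized signal in linear units (vertical log axis) of each marker list on the 3 adult basal arrays (circles) and the 3 fetal arrays (squares), using the brightest probe of each gene. The basal and fibroblast lists lie higher on all adult basal arrays, and the luminal list lies higher on all fetal arrays.

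Markers of other cells had a single Holm call. Of the epidermis and hair follicle list, Krt10, a keratin of differentiating epidermis, was called higher in fetal cells with a log2 fold change of 1.47 (SE 0.10, limma Holm-adjusted p = 0.0221). The list's sum was 8063, 7199 and 6875 on the adult basal and 8762, 7361 and 8426 on the fetal arrays, with Msx2 the brightest. With Benjamini-Hochberg adjustment 3 genes of the list were called, all higher in fetal cells: Krt10, Krt1 (1.95) and Krtdap (4.11). Krt1 and Krtdap entered the test only through their fetal level. Krtdap was well above background on 2 of the 3 adult basal arrays, which read 3.89, 5.17 and 1.71, so 4.11 is not an exact size. These 3 genes differed in the direction of Gli1, as did Lor (0.87) and Lhx2 (0.29), which were not called. Krt71 of the same list differed the other way (-0.87) and Msx2 by -0.06. The part of such cells in the Gli1 difference was not tested. The endothelial list had no Holm call and 3 Benjamini-Hochberg calls higher in adult basal cells, Cdh5, Emcn and Vwf. Its sums were 13220, 14188 and 11809 against 12524, 11020 and 12893, with Kdr the brightest. The leukocyte list had 1 Benjamini-Hochberg call higher in adult basal cells, Tyrobp, and a dimmer probe of Adgre1 passed as well, at least 10.4-fold higher in adult basal cells, with sums of 25111, 34525 and 28186 against 35132, 29429 and 26886 and Itgam the brightest. The Schwann cell and neuron list had 1 such call higher in fetal cells, S100b, which was well above background on 1 of the 3 adult basal arrays. Its sums were 25940, 24237 and 24460 against 29148, 29400 and 28094, which do not overlap, with Sox10 the brightest. The erythroid list had 1 such call, Hbb-bt, higher in fetal cells, and sums of 517, 1057 and 537 against 673, 1774 and 1553, with Hba-a1 the brightest and Epb42 at background on every array. The adipocyte list had sums of 2217, 2075 and 2470 against 1305, 1144 and 2874, no call by brightest probe, and Fabp4 as its brightest gene. A dimmer probe of Cidec passed Benjamini-Hochberg adjustment, at least 2.15-fold higher in fetal cells, but was well above background on only 2 of the 3 fetal arrays, which read 5.06, 2.35 and 7.23.

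The directions of Ptch1, Gli1, Hhip and Gli3 were the same under every processing setting that kept their probe. The Ptch1 difference ranged from -1.35 to -0.83 and that of Gli1 from 1.84 to 2.36, where Gli1 could be tested. Hhip ranged from 0.63 to 0.78 and Gli3 from 0.39 to 0.67. The brighter Smo probe ranged from -0.09 to 0.09 and changed sign between settings.

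**Figure D4:**
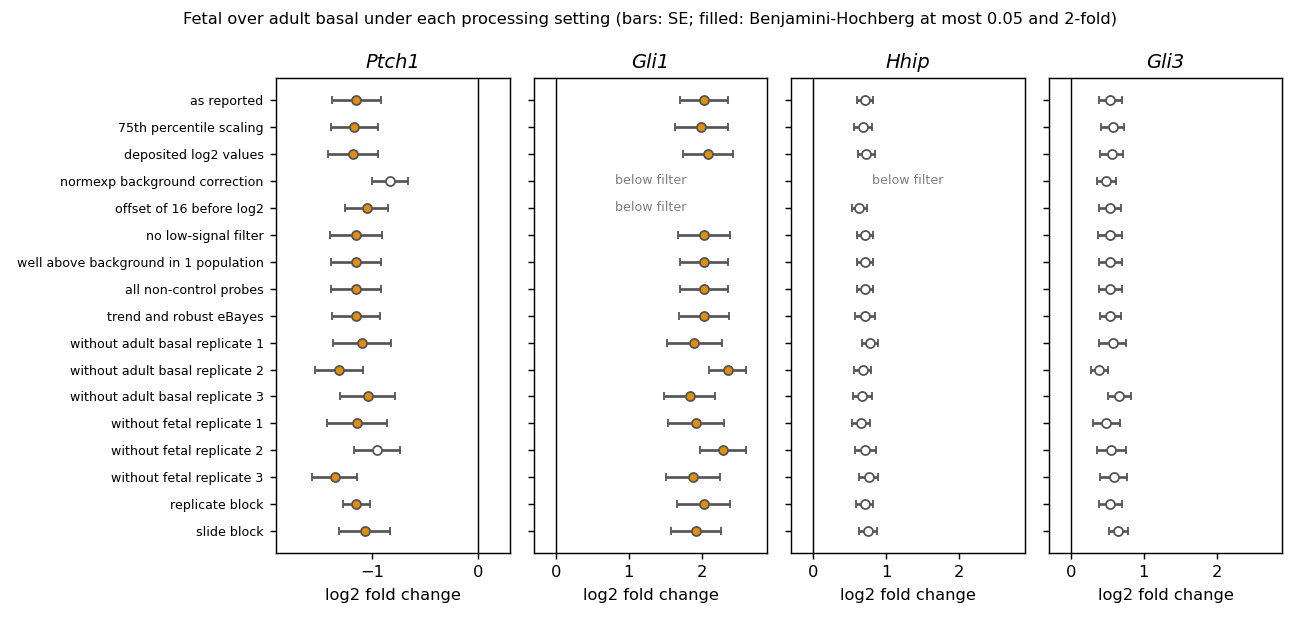
Log2 fold change of fetal over adult basal cells (horizontal axis, bars are the SE) for Ptch1, Gli1, Hhip and Gli3 under each processing setting (rows), filled where the probe passed Benjamini-Hochberg adjustment at 2-fold or more. No setting turned a direction, and Ptch1 lay short of 2-fold with the normexp correction and without fetal replicate 2.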

How the data were processed

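Scanned images were quantified by the authors in Feature Extraction, version 11.0.1.1 per the labels. The deposited processed signal is a spot intensity on a linear scale with background subtracted, not normalized between arrays. The authors also deposited a table of log2 values that they had quantile normalized, used here as an alternative. For labelling, the study's methods name a low-input whole-transcript kit and the labels a low-input kit that primes with a T7 promoter primer.

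Here, control and outlier spots (104 to 326 per array) were left out, spots of a probe averaged on the log2 scale, and the 6 arrays quantile normalized. Accessions were matched to RefSeq genes of GRCm38.p6, because the files used here held no column of gene names, and no gene coordinates were taken from that table. Following the study's methods, probes in the lowest of 3 k-means clusters in both populations (log2 of the mean linear signal under 5.95) were removed. Run on all non-control probes this filter kept 37830, more than the study reports, so the 2 filters differ in effect. Fetal minus adult basal differences were estimated in limma 3.58.1 (lmFit, then eBayes, in R 4.3.3), two-sided, with Holm adjustment as in the study. Scripts used Python with pandas 2.3.3 and matplotlib 3.10.9. The fit was also run on simulated data in which 200 of 20448 probes were changed, and 182 of these were recovered with Holm adjustment. Fewer probes were changed there than the 2270 called in the data, so nothing about the members is read from it. With 3 arrays in each population, their number limits the precision, and no spot was saturated.

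The members, the wider list and the marker lists were chosen with earlier results of these data known. Named were all members with every probe, the genes of the wider list that were called or had the largest difference in their role among those detected on every array, and the brightest and the called genes of each marker list. Other genes of the wider list and single marker probes were named after their values were seen. The values of 1 gene of the wider list and 1 promoter sequence are not reported here.

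The alternatives were 75th percentile scaling, the deposited log2 values, a normexp correction (offset 50, on median spot signals), an offset of 16, no filter, filtering by detection above background instead, all non-control probes, Benjamini-Hochberg adjustment, trend and robust eBayes, the mean of a gene's probes, each array left out, and replicate number or slide as a block. Benjamini-Hochberg adjustment under each of the others, and normexp and the offset for differences between members, were added after the data were seen.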

Additional observations from a re-analysis of the deposited data

How the results depend on the processing

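No member was called with Holm adjustment under any alternative, and 2 (Gli1 and Ptch1) were called with Benjamini-Hochberg adjustment. That second count was 0 with the normexp correction, 1 (Ptch1) with the offset of 16, and between 1 and 2 with single arrays left out. In the first 2 cases Gli1 fell below the filter, and with normexp Ptch1 also fell short of 2-fold (-0.83). Both settings add an offset, which compresses low signals, and its part in these counts was not tested. The wider list had 3 called genes, a gene being counted here when any of its probes passed. It had 1 without the low-signal filter and 10 with Benjamini-Hochberg adjustment, Btrc among them through its dimmer probe only. The count was 5 with trend and robust eBayes, 1 with slide as a block, and between 1 and 2 with single arrays left out. Over all tested probes 2270 were called. The count was 1182 without the filter, 6133 with Benjamini-Hochberg adjustment, and between 945 (without fetal replicate 1) and 1981 (without adult basal replicate 2) with single arrays left out. With the replicate number as a block it was 1302, with 2 genes of the wider list and no member called, and Gas1 and Ift88 had Holm-adjusted p of 0.0719 and 0.220 in limma. Deviations from the population means of same-numbered arrays correlated at -0.032, 0.0933 and 0.0488, so the numbers were not taken as a pairing. Of 217 values of single probes under the alternatives, 198 stayed on their side of the threshold, 16 fell below it and 3 passed it. No called value changed sign, and the brighter Smo probe, never called, kept its sign in 13 of 17. Those that fell below were Gas1 and Ift88. The causes of these changes were not tested. Signal over background limits Shh, Ihh, Gli1 in adult basal cells, Gli2 and the second Hhip probe, and 3 arrays against 3 limit every exact test to p = 0.10.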
